A study of Homo sapiens with 6 samples.

Results

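The 9 genes described here encode inflammatory chemokine ligands of the CXC and CC classes: IL8 (the older symbol of CXCL8), CXCL1, CXCL2, CXCL3, CXCL16, CCL2, CCL3, CCL4 and CCL5. They were chosen by name, with earlier results of these data known, and all 9 of 9 symbols were found among the 34114 genes of the table. The groups were NCAM1 knockdown cells, which received a short hairpin RNA (shRNA) against NCAM1 (the neural cell adhesion molecule also called CD56), and control cells, which received a scrambled shRNA. Each group held 3 libraries, 1 each from the human acute myeloid leukaemia lines MOLM-14, NOMO-1 and SKM-1, all sampled at 72 h, so all cells carried an shRNA construct and no line had a repeated library of a condition. MOLM-14 and NOMO-1 carry a KMT2A fusion, and SKM-1 was derived from leukaemia that followed a myelodysplastic syndrome. The labels do not say how many hairpin sequences were used. In the deposited column names, the shRNA tag of the SKM-1 knockdown library has an added letter that those of MOLM-14 and NOMO-1 lack. What the letter stands for is not stated.

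Chemokines are small secreted proteins that bind G protein-coupled receptors and direct the movement of leukocytes. CXC ligands of the IL8 and CXCL1 type act on CXCR2 and, for IL8, also on CXCR1, and draw in neutrophils, whereas the CC ligands act on receptors such as CCR1 and CCR2 and draw in monocytes, T cells and other cells. Cells of the monocytic lineage, including monocytic leukaemia cells, are a known source of both classes. Most of these genes are induced through the transcription factors NF-kB and AP-1, and many of their mRNAs are short-lived because proteins such as ZFP36 bind AU-rich elements in the 3′ UTR.

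The sequences before the starts of IL8, CXCL1, CXCL2, CXCL3 and CCL3 are printed because a promoter was matched for these genes only. They were not chosen by their levels. Each run is the 150 bases before the RefSeq start on build GRCh38.p14, read 5′ to 3′ on the strand of the gene. IL8 lies at chr4:73740419-73740568 (+), CXCL1 at chr4:73869243-73869392 (+), CXCL2 at chr4:74099196-74099345 (-), CXCL3 at chr4:74038690-74038839 (-) and CCL3 at chr17:36090144-36090293 (-). Promoters of 5 of the 9 genes were matched, and those of CXCL16, CCL2, CCL4 and CCL5 were not. Capitals mark the letters GGAATTTCC (a form of the NF-kB motif), TGANTCA (AP-1), TATAAA and CATAAA.
IL8: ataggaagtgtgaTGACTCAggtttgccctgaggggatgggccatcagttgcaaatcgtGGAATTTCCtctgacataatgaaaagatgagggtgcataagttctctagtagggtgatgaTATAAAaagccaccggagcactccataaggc
CXCL1: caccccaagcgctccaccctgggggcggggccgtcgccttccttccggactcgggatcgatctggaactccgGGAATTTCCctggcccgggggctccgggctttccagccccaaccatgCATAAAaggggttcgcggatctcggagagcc
CXCL2: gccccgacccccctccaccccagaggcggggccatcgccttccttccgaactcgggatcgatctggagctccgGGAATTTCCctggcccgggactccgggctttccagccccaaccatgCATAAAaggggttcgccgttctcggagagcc
CXCL3: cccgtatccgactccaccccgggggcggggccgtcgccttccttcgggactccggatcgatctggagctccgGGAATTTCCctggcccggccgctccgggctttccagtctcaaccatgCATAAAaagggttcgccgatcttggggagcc
CCL3: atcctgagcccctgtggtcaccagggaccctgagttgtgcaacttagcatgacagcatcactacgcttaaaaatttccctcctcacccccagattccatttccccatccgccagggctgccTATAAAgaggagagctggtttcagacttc

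The NF-kB letters GGAATTTCC, searched on both strands, stood at positions -91 to -83 of IL8, -78 to -70 of CXCL1, -77 to -69 of CXCL2 and -78 to -70 of CXCL3, and had no match in the CCL3 window. They were found in 145 of 35116 RefSeq promoters (0.413%) over the 250 bases before the start. The AP-1 letters, on both strands, were found in IL8 at -137 to -131 and in 6.57% of promoters. TATAAA stood at -31 to -26 of IL8 and at -29 to -24 of CCL3 (6.80% of promoters on the gene strand), and CATAAA at -31 to -26 of CXCL1, CXCL2 and CXCL3 (5.12%). No marked motif overlapped another. CXCL1 and CXCL3 were identical at 129 of the 150 bases (86.0%), and CXCL1 and CXCL2 at 100 of 149 aligned bases without gaps (67.1%). IL8, CXCL1, CXCL3 and CXCL2 lie on chromosome 4, and the other 5 genes on chromosome 17. These matches describe letters, not bound sites.

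Library depth ran from 41916991 to 47688779 gene-assigned reads. NCAM1 was lower in the knockdown library of each line, with normalized read counts of 1896 against 6004 in MOLM-14 (3.17-fold lower), 312 against 1163 in NOMO-1 (3.73-fold lower) and 101 against 12537 in SKM-1 (124-fold lower). Of 16 monocyte and myeloid marker genes, 13 or 14 had at least 10 reads in each library. Lymphoid and epithelial markers were not all near 0: the T cell gene CD3D stood at 2961 and 3789 normalized counts in knockdown and control cells of NOMO-1, and the epithelial gene EPCAM at 1203 and 549 in those of SKM-1. Their part in the results below was not tested. The SKM-1 pair differed across far more genes than the others, with 35.2% of genes at least 2-fold apart, against 14.8% in NOMO-1 and 7.28% in MOLM-14.

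Values below are normalized read counts, that is, reads divided by the size factor of the library. A ratio is knockdown over control within a line, and its interval is an exact 95% interval that covers counting error only. With 1 library per line and condition a ratio has no replicate check.

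IL8, the ligand of CXCR1 and CXCR2, was lower in knockdown cells of MOLM-14 and NOMO-1 and higher in those of SKM-1. In MOLM-14 it had 134 normalized counts in knockdown cells and 323 in control cells, a 2.42-fold lower level (1.96 to 3.004). NOMO-1 had 3115 in knockdown cells and 8995 in control cells, a 2.89-fold lower level (2.78 to 3.004). In SKM-1 the gene had 28301 in knockdown cells and 528 in control cells, a 53.6-fold higher level (49.1 to 58.5). The SKM-1 knockdown library was thus the highest of the 6, and the NOMO-1 control library the next. IL8 ranked above 99.5% of genes in the SKM-1 knockdown library, against 65.1% in its control.

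The GRO ligands CXCL1, CXCL2 and CXCL3, which also act on CXCR2, were far less abundant. CXCL1 had 0 and 1.115 normalized counts in knockdown and control cells of MOLM-14, 56.6 and 101 in those of NOMO-1, and 173 and 24.4 in those of SKM-1. CXCL2 had 4.18 and 3.35 in knockdown and control cells of MOLM-14, 31.9 and 35.9 in those of NOMO-1, and 58.8 and 22.4 in those of SKM-1. CXCL3 had 0 and 1.115 in knockdown and control cells of MOLM-14, 42.0 and 47.2 in those of NOMO-1, and 121 and 1.02 in those of SKM-1. All 3 were highest in the SKM-1 knockdown library, and in MOLM-14 they were at or near the floor of 3 reads.

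The knockdown library of SKM-1 held 7.08-fold more CXCL1 (4.61 to 11.3) and 2.63-fold more CXCL2 (1.60 to 4.48) than its control. For CXCL3 the 132 reads in knockdown cells and the single read in control cells gave a ratio of 119 (21.0 to 4746). CXCL1 was lower in NOMO-1 knockdown cells (ratio 0.560, 0.403 to 0.772). The NOMO-1 intervals of CXCL2 (ratio 0.890, 0.546 to 1.45) and CXCL3 (0.889, 0.582 to 1.35) included 1. No fold is given for CXCL1 and CXCL3 in MOLM-14, where counts were 0 and 1 read.

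CXCL16 differs from the other CXC ligands in that it is made as a transmembrane protein, binds CXCR6, and is released by the proteases ADAM10 and ADAM17. It had 168 normalized counts in knockdown cells and 336 in control cells of MOLM-14 (ratio 0.501, 0.411 to 0.608). In NOMO-1 it had 288 in knockdown cells and 554 in control cells (0.521, 0.453 to 0.598). SKM-1 showed 104 in knockdown cells and 64.0 in control cells (1.62, 1.18 to 2.24). The difference had the same direction in MOLM-14 and NOMO-1 and the opposite one in SKM-1, and the whole range across libraries was narrower than that of IL8. ADAM17 counts were 1610 and 1998 in knockdown and control cells of MOLM-14, 1599 and 2495 in those of NOMO-1, and 2817 and 1379 in those of SKM-1.

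**Figure D1:**
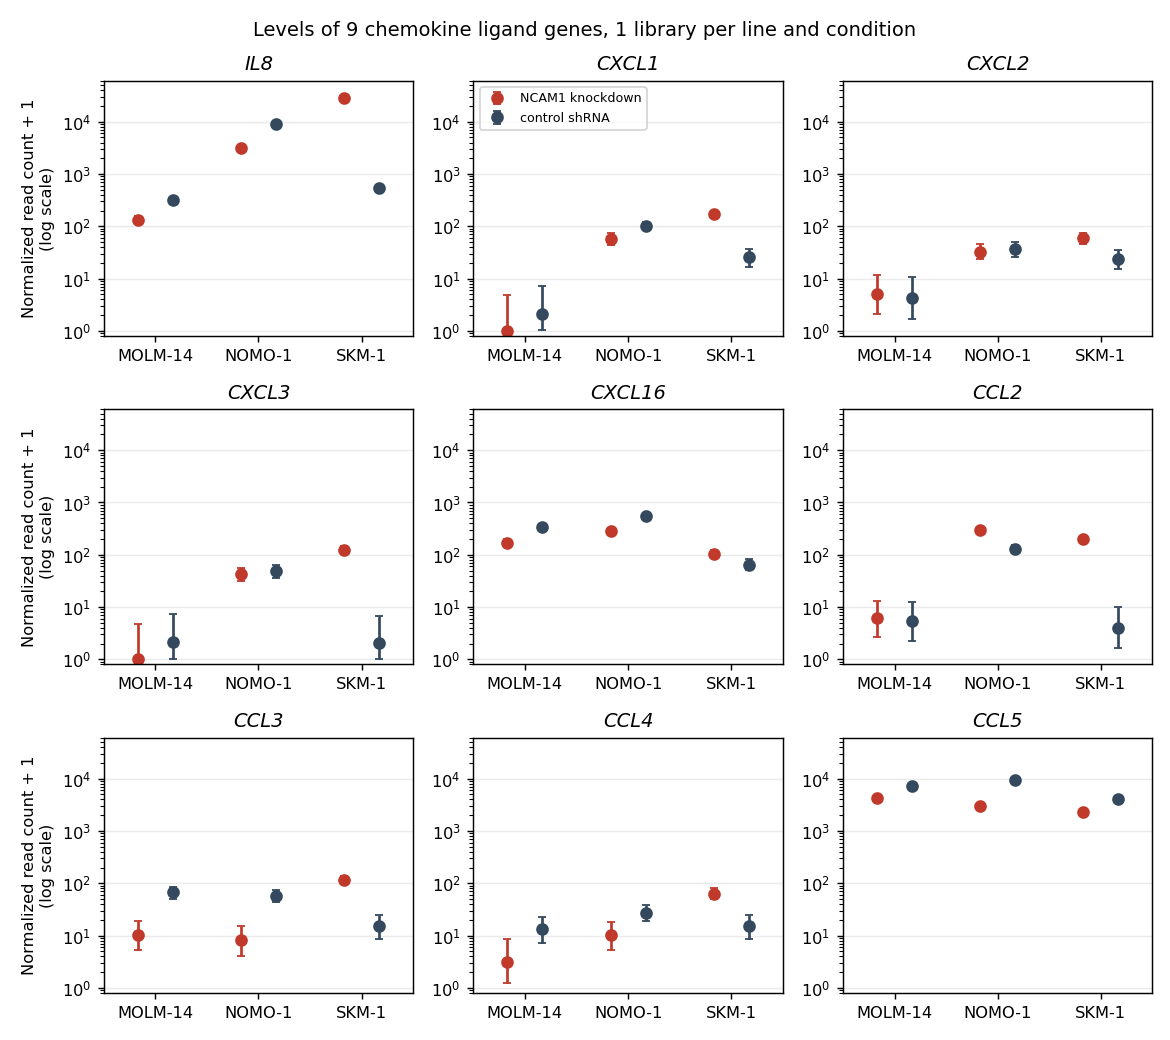
Normalized read count plus 1 (log scale) of the 9 chemokine ligand genes in each library, by cell line, with NCAM1 knockdown in red and control shRNA in dark blue. Points are single libraries and bars are 95% Poisson counting intervals. IL8 stands at 28301 in SKM-1 knockdown cells against 528 in its control, while CCL5 is lower in knockdown cells of all 3 lines.

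CCL2, the monocyte attractant that signals through CCR2, was the 1 gene of the 9 with a higher level in knockdown cells of all 3 lines. It had 5.22 and 4.46 normalized counts in knockdown and control cells of MOLM-14, 294 and 130 in those of NOMO-1, and 204 and 3.05 in those of SKM-1. The ratio was 1.17 for MOLM-14 (0.252 to 5.90, on 5 and 4 reads), 2.25 for NOMO-1 (1.84 to 2.77) and 66.9 for SKM-1 (22.6 to 327, on 222 and 3 reads). The MOLM-14 interval included 1. Of the genes tested, 14.6% were higher in all 3 lines. CCR2 had 767 and 927 counts in knockdown and control cells of MOLM-14, 4856 and 2940 in those of NOMO-1, and 12.9 and 173 in those of SKM-1.

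CCL3 and CCL4, the macrophage inflammatory proteins, were low in every library. CCL3 had 9.40 and 65.8 normalized counts in knockdown and control cells of MOLM-14, 7.30 and 56.7 in those of NOMO-1, and 116 and 14.2 in those of SKM-1. Knockdown cells had a 7.003-fold lower level in MOLM-14 (3.45 to 16.1), a 7.77-fold lower one in NOMO-1 (3.70 to 18.8) and an 8.13-fold higher one in SKM-1 (4.67 to 15.3). CCL4 had 2.09 and 12.3 counts in knockdown and control cells of MOLM-14, 9.12 and 26.4 in those of NOMO-1, and 62.4 and 14.2 in those of SKM-1, with ratios of 0.170 (0.0183 to 0.780), 0.345 (0.149 to 0.732) and 4.39 (2.45 to 8.45) for MOLM-14, NOMO-1 and SKM-1. Both genes thus showed the IL8 pattern of signs at lower levels.

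These genes have closely related copies, CCL3L1, CCL3L3, CCL4L1 and CCL4L2. In the GENCODE v29 protein-coding transcripts, 45 of 904 stretches of 100 bases in CCL4 (4.98%) were also found in CCL4L2, and no such stretch was shared by CCL3 and CCL3L1. CCL3L3 and CCL4L1 were not analysed there, and reads that match 2 copies could be split or dropped. CCL3L1 had more counts than CCL3 in every library: 14.6 and 93.7 in knockdown and control cells of MOLM-14, 28.3 and 191 in those of NOMO-1, and 376 and 42.7 in those of SKM-1. CCL3L3 had 4.18 and 27.9 in knockdown and control cells of MOLM-14, 2.74 and 20.8 in those of NOMO-1, and 36.7 and 9.14 in those of SKM-1, and CCL4L2 had 52.3 in SKM-1 knockdown cells and 3.05 in SKM-1 control cells, with 8.21 and 33.1 in knockdown and control cells of NOMO-1. CCL4L1 had at most 13.2 normalized counts except in SKM-1 knockdown cells, where it stood at 24.8 against 0 in control cells. With the 0 set to a floor of 3 reads its ratio was 8.13, and the lower end of its interval was 6.17. Summed over its copies, CCL3 had ratios of 0.150 for MOLM-14 (0.0963 to 0.227), 0.143 for NOMO-1 (0.101 to 0.198) and 7.99 for SKM-1 (6.18 to 10.5). The CCL4 sum gave 0.293 (0.0838 to 0.836), 0.251 (0.145 to 0.415) and 8.08 (4.88 to 14.2) for those lines, the same signs as for the single genes.

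CCL5, also called RANTES, which binds CCR1 and CCR3, was lower in knockdown cells of all 3 lines. It had 4181 normalized counts in knockdown cells and 7367 in control cells of MOLM-14, 3063 and 9473 in those of NOMO-1, and 2344 and 4118 in those of SKM-1. The knockdown level was 1.76-fold lower in MOLM-14 (1.69 to 1.83), 3.09-fold lower in NOMO-1 (2.97 to 3.22) and 1.76-fold lower in SKM-1 (1.67 to 1.85). Across lines the 2 groups overlapped, since the MOLM-14 knockdown library exceeded the SKM-1 control. Of the genes tested, 15.9% were lower in all 3 lines.

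**Figure D2:**
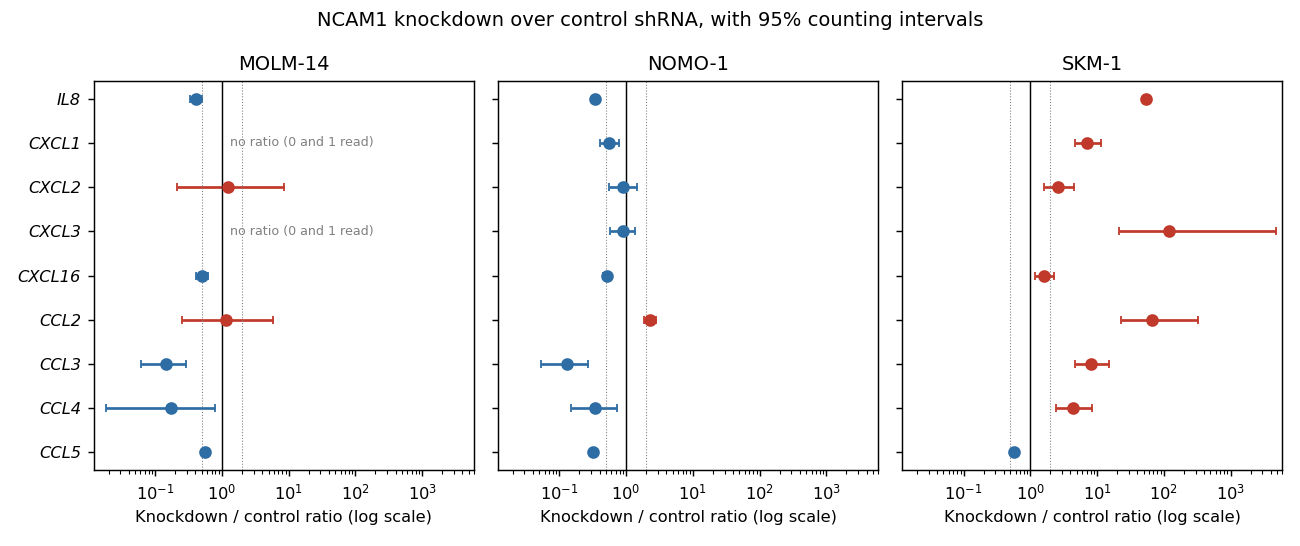
Ratio of NCAM1 knockdown over control shRNA for each of the 9 genes (log scale), 1 panel per line. Bars are exact 95% intervals for counting error, blue points lie below 1 and red points above, and dotted lines mark 2-fold. In SKM-1 only CCL5 lies below 1 (0.569), whereas in MOLM-14 and NOMO-1 IL8, CXCL16, CCL3, CCL4 and CCL5 all do.

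Counted by line, genes with at least 10 reads in 1 of the 2 libraries were 5 of the 9 in MOLM-14 and 9 of 9 in NOMO-1 and SKM-1. In MOLM-14, 3 of the 5 (IL8, CCL3 and CCL4) were at least 2-fold lower and 0 were 2-fold higher, where 3.83% of all genes were 2-fold lower and 3.44% higher. In NOMO-1, 4 of 9 (IL8, CCL3, CCL4 and CCL5) were 2-fold lower and 1 (CCL2) higher, against 9.18% and 5.62% of all genes. In SKM-1, 7 of 9 were 2-fold higher and 0 lower, against 18.1% and 17.1% of all genes, the exceptions being CXCL16 and CCL5. The median log2 ratio was -1.28 for MOLM-14, -0.94 for NOMO-1 and 2.82 for SKM-1, beside medians within 0.01 of 0 for all genes. CCL3 in MOLM-14 and NOMO-1, CCL4 in MOLM-14, and CXCL3 and CCL2 in SKM-1 reached the minimum only through the library in which they were high.

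Of the 9 genes, 6 were higher in SKM-1 knockdown cells and lower in knockdown cells of both other lines on the log2(normalized count + 1) scale, a pattern held by 13.4% of the genes tested. For CXCL1 and CXCL3 the MOLM-14 sign rests on 0 against 1 read, and the NOMO-1 interval of CXCL3 includes 1, so the direction in each line can be read for 4 of the 6 (IL8, CXCL16, CCL3 and CCL4). Counting intervals excluded 1 on opposite sides in different lines for 5 of the 9 genes (these 4 and CXCL1), as they did for 30.7% of the genes tested. With 2-fold required in each line and direction, IL8, CCL3 and CCL4 remained, beside 61 genes in all (0.312%). Among those 61, SPP1 (osteopontin), singled out after its values were seen, and 1 clone-named gene had a larger log2 difference in SKM-1 than IL8.

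Over the 3 lines together, limma found 0 of 19575 genes changed at an adjusted p under 0.05 with cell line as a block (0.0%), and 877 (4.48%) at an unadjusted p under 0.05. edgeR also called 0 (863 at an unadjusted p under 0.05), and DESeq2 called 43 (0.22%), with 0 of the 9 among them and no adjusted p for CXCL2, CXCL3 and CCL4. CCL5 had the smallest p of the 9: its mean log2 difference was -1.09 ± 0.47 (SD, n = 3 lines), with a limma standard error of 0.23, a p of 0.0059 and an adjusted p of 0.779. DESeq2 gave CCL5 an adjusted p of 0.0804. CCL2 had a mean log2 difference of 2.34 ± 2.92 (SD, n = 3 lines; limma adjusted p 0.779), and IL8 one of 0.98 ± 4.12 (SD, n = 3 lines; limma adjusted p 0.867). None of the 9 was called, and the other 6 had mean log2 differences of -0.85 to 1.56 and limma adjusted p of 0.796 to 0.930. An exact two-sided sign-flip permutation test over the 3 pairs cannot go below 0.25, which CCL2 and CCL5 reached.

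The mean differences of IL8, CXCL1, CXCL3, CCL3 and CCL4 changed sign with the pairs included. Without the SKM-1 pair the mean log2 difference of IL8 was -1.40 in place of 0.98, that of CXCL1 -0.95 in place of 0.29 and that of CXCL3 -0.62 in place of 1.56. Without the MOLM-14 pair CCL3 stood at 0.071 in place of -0.85 and CCL4 at 0.31 in place of -0.49. CCL5 kept its sign, at -1.22 without MOLM-14, -0.81 without NOMO-1 and -1.22 without SKM-1.

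The pool of ligand reads differed in size in each line, and in makeup mainly in SKM-1. The 9 genes summed to 4503 normalized counts in knockdown cells and 8114 in control cells of MOLM-14, 6906 and 19419 in those of NOMO-1, and 31484 and 4790 in those of SKM-1. IL8 gave 89.9% of this sum in SKM-1 knockdown cells and 11.0% in SKM-1 control cells. CCL5 gave 7.45% in SKM-1 knockdown cells and 86.0% in the control. In NOMO-1 the shares stayed near each other, with IL8 at 45.1% in knockdown cells and 46.3% in control cells, and in MOLM-14 CCL5 gave 92.8% in knockdown cells and 90.8% in control cells.

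**Figure D3:**
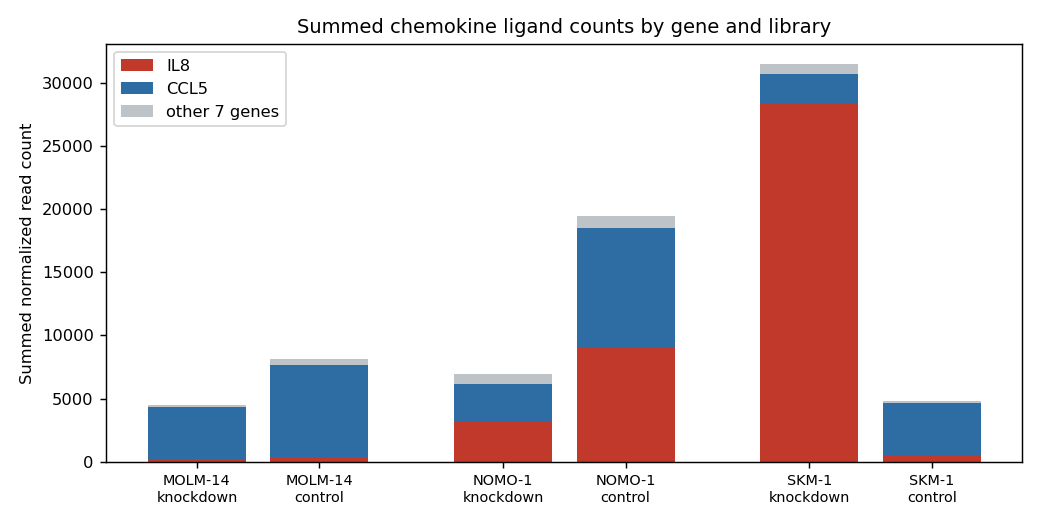
Summed normalized read counts of the 9 chemokine ligand genes in each library (bars start at 0, 1 library per bar), divided into IL8, CCL5 and the other 7 genes. The SKM-1 knockdown bar reaches 31484 and is mostly IL8, whereas the SKM-1 control bar reaches 4790 and is mostly CCL5.

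Set per kilobase of the longest annotated transcript, so that genes can be compared within a library, IL8 stood at 16599 and CCL5 at 1717 normalized counts per kilobase in SKM-1 knockdown cells, against 310 and 3017 in SKM-1 control cells. In NOMO-1 IL8 and CCL5 stood at 1827 and 2244 per kilobase in knockdown cells, and at 5276 and 6940 in control cells. The ligand with the most counts per kilobase was CCL5 in 5 libraries and IL8 in the SKM-1 knockdown library. Per kilobase CXCL16 ran from 28.8 to 249, CXCL3 from 0 to 113 and CCL2 from 4.11 to 396.

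Between lines, limma called 2 of the 9 genes. Taking both libraries of a line with condition as a term, limma called CXCL1 lower in MOLM-14 than in NOMO-1 by a log2 difference of -5.72 (SE 1.08, adjusted p 0.0350), and CXCL2 by -2.88 (SE 0.58, adjusted p 0.0399), where 8.01% of genes were called lower, 5.26% higher and 13.3% in all. CXCL1 was called higher in SKM-1 than in MOLM-14 by 5.51 (adjusted p 0.0345, limma) and CXCL2 by 2.98 (adjusted p 0.0333, limma), where 8.06% of genes were called higher, 7.79% lower and 15.9% in all. These differences are on the log2(normalized count + 1) scale, and the counts of CXCL1 in MOLM-14 were 0 and 1 read. With edgeR the adjusted p of CXCL1 was 0.0609 between MOLM-14 and NOMO-1 and 0.0566 between SKM-1 and MOLM-14, and that of CXCL2 was 0.0511 and 0.0427, so of these 4 calls edgeR made the last one only, while DESeq2 made all 4. Without the NOMO-1 pair the adjusted p of the SKM-1 and MOLM-14 contrast was 0.118 for CXCL1 and 0.112 for CXCL2 in limma, and without the filter on low values none of the 4 was called.

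Between SKM-1 and NOMO-1, 2 of the 9 genes had an unadjusted limma p under 0.05, beside 6042 of 19575 genes. None of the 9 was called by limma, where 13.7% of all genes were, 5.93% higher and 7.78% lower. CXCL16 came nearest, lower in SKM-1 by a log2 difference of -2.28 with a limma adjusted p of 0.0554 (0.0495 with total-count scaling), and DESeq2 called it (adjusted p 0.0036). IL8 differed by -4.66 between MOLM-14 and NOMO-1 (limma adjusted p 0.179) and by 4.21 between SKM-1 and MOLM-14 (limma adjusted p 0.195). Without the SKM-1 pair limma called IL8 (adjusted p 0.0027), CXCL3 (adjusted p 0.0050) and CCL2 (adjusted p 0.0052) lower in MOLM-14 than in NOMO-1, with 4880 genes called in place of 2596. DESeq2 called IL8 (adjusted p 0.0123) and CXCL3 (adjusted p 0.0293) higher in SKM-1 than in MOLM-14, and CCL2 (adjusted p 0.0014) and CXCL3 (adjusted p 0.0289) lower in MOLM-14 than in NOMO-1. Both MOLM-14 libraries lay below all 4 others for IL8, CXCL1 and CXCL2, 3 of 9 genes, as did 19.1% of the genes tested. The order of the lines for CCL3, CCL4 and CCL5 was not resolved, with limma adjusted p of 0.115 or more in every contrast.

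Outside the 9 ligands, the genes most like IL8 over the 6 libraries, by the root-mean-square difference of log2(normalized count + 1) centred on each gene's mean, were CCL22, SIGLEC9, FAT4, PTPRM and MERTK, with differences of 0.51 to 0.64 among 14883 genes with a mean of at least 50 normalized counts. CCL22 had 2.09 and 4.46 normalized counts in knockdown and control cells of MOLM-14, 140 and 196 in those of NOMO-1, and 502 and 17.3 in those of SKM-1. The genes most like CCL3 were FLT1, EMP1, CCL3L1, CYTIP and MAFF, with differences of 0.47 to 0.75. FLT1, a VEGF receptor, had 277 and 2259 counts in knockdown and control cells of MOLM-14, 335 and 2229 in those of NOMO-1, and 2467 and 895 in those of SKM-1. CXCL3 was 0.61 from IL8, CXCL1 1.05 and CXCL16 2.81. These distances rest on 6 libraries of 3 lines.

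Receptors of these ligands were listed separately. Of 15 receptor and decoy genes, 12 were found and 10 tested. Limma called 0 of them between knockdown and control, as it called 0 of 19575 genes. In SKM-1, 3 of 7 were at least 2-fold higher in knockdown cells and 2 lower (18.1% and 17.1% of all genes). In the SKM-1 control library 6 of the 7 had at least 10 reads. In NOMO-1, 0 of 10 were higher and 2 lower (5.62% and 9.18%). In MOLM-14, 0 of 9 were higher and 0 lower (3.44% and 3.83%). CXCR2 had 457 and 439 normalized counts in knockdown and control cells of MOLM-14, 1171 and 1761 in those of NOMO-1, and 2089 and 1398 in those of SKM-1, whereas CXCR1 had at most 34.9 counts in any library. CXCR2 was called lower in MOLM-14 than in NOMO-1 (log2 difference -1.68, limma adjusted p 0.0432) and higher in SKM-1 than in MOLM-14 (1.93, limma adjusted p 0.0280). CCR1, a receptor of CCL3 and CCL5, had 1663 and 2555 counts in knockdown and control cells of MOLM-14 and 1026 and 1806 in those of NOMO-1, but 123 and 73.2 in those of SKM-1, and was called lower in SKM-1 than in either other line (log2 differences -4.43 and -3.83, limma adjusted p 0.0074 against MOLM-14 and 0.0102 against NOMO-1). CXCR6, the receptor of CXCL16, had 6.10 to 27.4 counts.

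Genes that are induced with these ligands in many settings were taken as lists, which were chosen with earlier results of these data known. The list of 15 NF-kB subunits and feedback inhibitors also held BIRC3, TRAF1 and ICAM1, which are neither. Of the 15, 7 were at least 2-fold higher and 0 lower in SKM-1 knockdown cells (BIRC3, TRAF1, BCL3, ICAM1, NFKBIA, TNFAIP3 and NFKBIZ). In NOMO-1, 0 were higher and 4 lower, and in MOLM-14, 0 were higher and 1 lower. The subunits RELA, RELB, REL, NFKB1 and NFKB2 were not among the 7, with SKM-1 log2 ratios of 0.33 to 0.92. Over all genes, 18.1% were 2-fold higher and 17.1% lower in SKM-1, 5.62% and 9.18% in NOMO-1, and 3.44% and 3.83% in MOLM-14. TRAF1, a TNF receptor adaptor, had 513 normalized counts in knockdown cells and 1222 in control cells of MOLM-14, 360 and 1357 in those of NOMO-1, and 5736 and 1496 in those of SKM-1. BIRC3 stood at 252 in SKM-1 knockdown cells and 4.06 in SKM-1 control cells, and at 251 and 241 in knockdown and control cells of NOMO-1. In SKM-1 BIRC3, 1 of the 7, reached the minimum of 10 reads only through the knockdown library. Of 15 genes 14 had a positive log2 ratio in SKM-1 and 12 a negative one in MOLM-14, with medians of 0.92 for SKM-1, -0.71 for NOMO-1 and -0.16 for MOLM-14.

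Among 19 inflammatory cytokines and enzymes, 6 of the 12 with enough reads in SKM-1 were at least 2-fold higher in knockdown cells and 2 lower, where 18.1% and 17.1% of all genes were. TNF and TNFAIP6, 2 of these 6, reached the minimum of 10 reads only through the knockdown library, and TNFAIP6 had 0 reads in control cells. TNF had 1250 and 3963 normalized counts in knockdown and control cells of MOLM-14, 955 and 1479 in those of NOMO-1, and 554 and 7.11 in those of SKM-1. PTX3, a secreted pattern recognition protein, had 40.7 and 92.6 in knockdown and control cells of MOLM-14, 31.9 and 84.1 in those of NOMO-1, and 956 and 58.9 in those of SKM-1. IL18 was lower in SKM-1, at 229 in knockdown cells and 1111 in control cells. In NOMO-1, 5 of 15 were 2-fold lower (9.18% of all genes) and 0 higher (5.62%), and in MOLM-14, 4 of 11 were lower (3.83%) and 0 higher (3.44%).

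**Figure D4:**
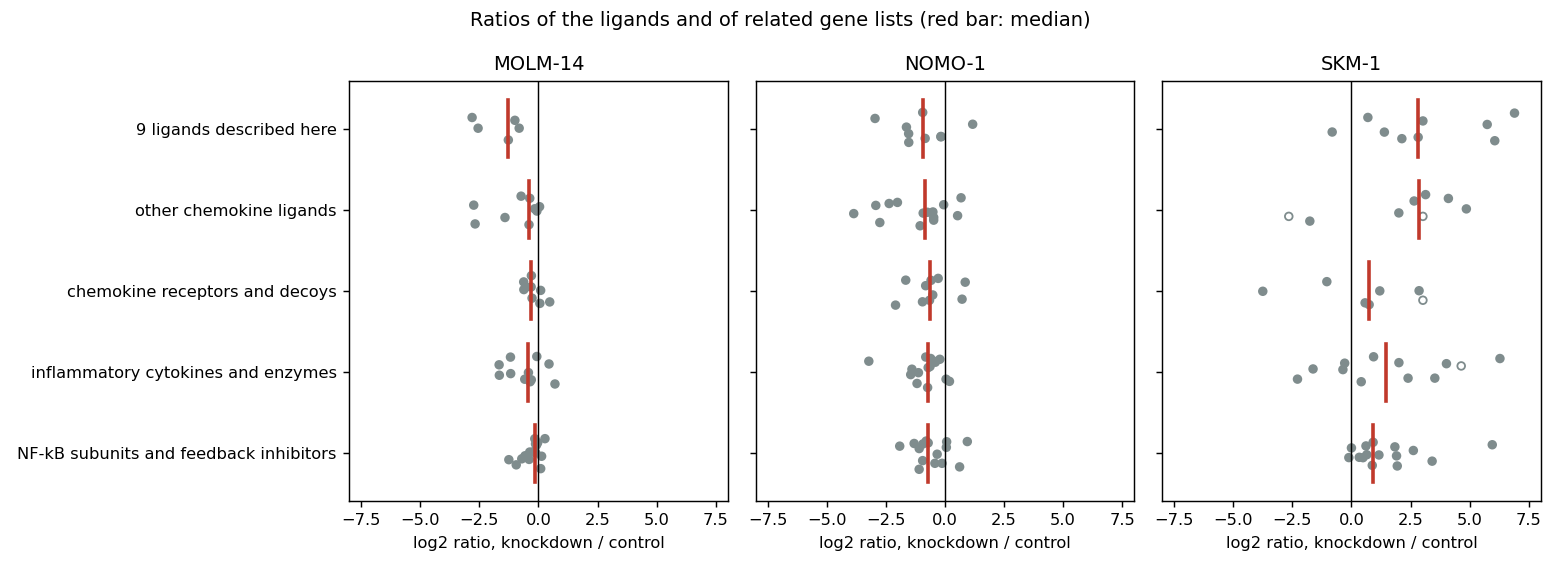
Log2 ratio of knockdown over control for the 9 ligands and for 4 related gene lists, 1 panel per line. Each point is a gene with at least 10 reads in 1 of the 2 libraries, open points had 0 reads in 1 library and are set to 3 reads there, and red bars are medians. The median of the 9 ligands is 2.82 in SKM-1 and lies below 0 in MOLM-14 and NOMO-1.

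The letters ATTTA, the core of AU-rich elements, were counted in the longest annotated 3′ UTR of each gene (GENCODE v29) on the gene strand. There were 10 in CXCL2, 9 in IL8, 7 in CXCL3, 5 in CXCL1, 4 in CCL3 and 2 in CCL4, but 1 each in CXCL16 and CCL2 and 0 in CCL5, beside a median of 2 over 13171 genes. Per kilobase, CXCL2 had 13.9 and IL8 7.19, against a median of 1.63, and both lay above 97% of genes. Among 12 tested regulators of such mRNAs, ZFP36, which speeds their decay, had 8289 and 14339 normalized counts in knockdown and control cells of MOLM-14, 1118 and 1889 in those of NOMO-1, and 4839 and 1209 in those of SKM-1. ZFP36L1 was lower in knockdown cells of all 3 lines, at 565 against 829 counts in MOLM-14, 52.0 against 263 counts in NOMO-1 and 96.4 against 181 counts in SKM-1. Between knockdown and control limma called none of these regulators, as it called 0 of 19575 genes. At an unadjusted p under 0.05 there was 1 of the 12, beside 4.48% of all genes.

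Other myeloid genes also differed in SKM-1. MPO, a granule enzyme of myeloid precursors, had 6166 normalized counts in SKM-1 knockdown cells and 728824 in control cells, and ELANE, another such enzyme, had 933 in knockdown cells and 81841 in control cells. S100A8 had 73055 in SKM-1 knockdown cells and 302 in control cells, and S100A9 had 91617 in knockdown cells and 1254 in control cells. In SKM-1, 13 of 16 monocyte and myeloid markers had at least 10 reads in the control library. At least 10 reads in 1 library or both were held by 14. In knockdown cells 7 of these were at least 2-fold higher and 2 lower (18.1% and 17.1% of all genes). A positive log2 ratio was seen in 10 of the 14 and a negative one in 4. The 16 markers summed to 245008 in knockdown cells and 848178 in control cells, where MPO alone made up most of the sum. In NOMO-1 1 of 15 markers was 2-fold higher and 3 lower (5.62% and 9.18% of all genes), and in MOLM-14 1 of 13 was higher and 2 lower (3.44% and 3.83%). Their part in the ligand differences was not tested, and a change in the kinds of cells present and a change of RNA per cell cannot be told apart in these bulk libraries.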

How the data were processed

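RNA from 6 cultures, 1 per cell line and condition, was made into TruSeq libraries and sequenced as paired reads, per the labels. The signal values deposited are gene-level reads scaled by the authors with a size factor for each library, and the deposited log2 values are the authors' unnamed transformation of the same counts. The submitters' processing notes name STAR, HTSeq 0.6.1p1 for counting, DESeq2 1.12.4, bcl2fastq 1.8.4 and build hg19. Neither the gene annotation nor the strand setting is given in the sources used here, so overlapping genes on opposite strands cannot be told apart. Promoters and transcripts came from GRCh38 tables and were used for sequences and lengths only.

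Values in each library were multiples of what 1 read is worth, so 100% of them came back as whole reads (tolerance 0.001). Recovered reads gave the exact conditional 95% intervals and the floor of 3 reads, which cover counting error only. Groups were compared with limma 3.58.1 under R 4.3.3 (two-sided, moderated with a mean-variance trend) on log2(normalized count + 1), which understates the change of low genes, with the line as a block, 2 residual degrees of freedom, Benjamini-Hochberg adjustment and a call under 0.05. Genes with a mean of 10 or more were tested, 19575 in all, and line contrasts also needed a 2-fold difference. Libraries were paired by cell line: deviations from group means correlated at 0.850, 0.863 and 0.710 within MOLM-14, NOMO-1 and SKM-1. Whether the libraries of a line came from parallel cultures on the same day is not stated. With 1 library per line and condition, p-values measure how unevenly the knockdown difference ran over the lines, not a spread between repeated libraries. This holds for the line contrasts as well. A fit without 1 of the lines has fewer residual degrees of freedom still.

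Other settings tried were total-count and TMM scaling, pseudocounts of 0.5 and 8, a minimum mean of 50 or no minimum, the authors' transformed values, moderation without trend, no block, edgeR 4.0.16 and DESeq2 1.42.0 on recovered reads, leaving out each line, and, added after seeing the data, sums over the CCL3 and CCL4 copies. The steps were tested on simulated data, in which a knockdown change was the same in all 3 lines. There limma called 1 of 67 genes changed 2-fold by knockdown, 27 of 67 changed 4-fold and 55 of 66 changed 8-fold. It also called 15 of the other genes. Between SKM-1 and MOLM-14 it called 0 of 67, 12 of 67 and 33 of 66 at those folds, and 10 of the other genes. The naming rule took all 9 genes, NCAM1, the copies, up to 4 genes per list by smallest p and those of largest ratio per line, up to 3 called per line contrast, and the 5 genes nearest IL8 and CCL3. CXCR1, CXCR6 and the receptors beside their ligands were named for that pairing. Genes and lists were chosen with earlier results of these data known. The values of 1 listed gene are not reported here.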

Additional observations from a re-analysis of the deposited data

Results flagged for a closer look

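In 5 of the 9 genes the knockdown ratio lay on opposite sides of 1 in different lines, with counting intervals that excluded 1 on both sides, as did 30.7% of the 19575 genes tested. IL8 had a ratio of 53.6 in SKM-1, against 0.413 in MOLM-14 and 0.346 in NOMO-1. CXCL1 had ratios of 0.560 in NOMO-1 and 7.08 in SKM-1. CXCL16 had a ratio of 1.62 in SKM-1, against 0.501 in MOLM-14 and 0.521 in NOMO-1. CCL3 had a ratio of 8.13 in SKM-1, against 0.143 in MOLM-14 and 0.129 in NOMO-1. CCL4 had one of 4.39 in SKM-1, against 0.170 in MOLM-14 and 0.345 in NOMO-1. The difference between lines was not tested, because each line has 1 library per condition.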

How the results depend on the processing

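DESeq2 called 43 genes between knockdown and control where limma called 0. Without the block for the line, the replicate block that pairs the libraries, limma also called 0, with 141 genes at an unadjusted p under 0.05 in place of 877. Left-out pairs gave 0 calls in each case for the knockdown comparison, but 4880 genes between MOLM-14 and NOMO-1 without the SKM-1 pair (2596 with it), and 676 between SKM-1 and MOLM-14 without the NOMO-1 pair (3103 with it). The cause was not tested. Genes at least 2-fold apart numbered 1363 for MOLM-14, 3025 for NOMO-1 and 6987 for SKM-1. They numbered 278, 1029 and 3902 with at least 100 normalized counts required, and 420, 1272 and 4554 with the authors' transformed values, in the same order of lines. With 1 line left out, the mean log2 differences that changed sign ranged from -1.40 (without SKM-1) to 2.24 (without NOMO-1) for IL8, from -0.95 to 0.97 for CXCL1, from -0.62 to 2.88 for CXCL3, from -2.74 to 0.13 for CCL3 (0.071 without MOLM-14) and from -1.77 to 0.31 for CCL4. Between SKM-1 and NOMO-1 the log2 difference of IL8 was 1.16 in DESeq2 and 1.11 in edgeR against -0.45 in limma, and that of CXCL1 was 0.13 in DESeq2 against -0.21 in limma. Between MOLM-14 and NOMO-1 CCL5 was at -0.088 with total-count scaling against 0.04, where that scaling put the median of all genes at -0.14. The calls of CXCL1 and CXCL2 between lines were lost 17 times over genes, contrasts and settings, and IL8, CXCL3, CXCL16 or CCL2 gained a call 9 times. The ratios within lines kept their direction, but 13 lay outside their counting interval with the transformed values, among them IL8 in SKM-1 at 36.6. At the depth of these libraries a gene at 0 reads is known only to lie under 3 reads, which limits CXCL1 and CXCL3 in MOLM-14.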

Other observations

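Other chemokine ligands were read from the same libraries. Of 39 listed ligands, 24 were found and 12 tested. Limma called 0 of them between knockdown and control, as it called 0 of 19575 genes. At an unadjusted p under 0.05 there were 0, beside 4.48% of all genes. The list holds the copies of CCL3 and CCL4, which are described above. CCL20, a ligand of CCR6 that attracts lymphocytes and dendritic cells, had 71.0 and 118 normalized counts in knockdown and control cells of MOLM-14, 118 and 605 in those of NOMO-1, and 287 and 45.7 in those of SKM-1. CCL28 had 1297 and 1359 in knockdown and control cells of MOLM-14, 903 and 1510 in those of NOMO-1, and 239 and 808 in those of SKM-1. The interferon-induced ligand CXCL10 had 199 and 258 in knockdown and control cells of MOLM-14 and 420 and 435 in those of NOMO-1, but 2.75 and 2.03 in those of SKM-1, and limma called it lower in SKM-1 than in MOLM-14 (log2 difference -6.08, adjusted p 0.0028) and NOMO-1 (-6.99, adjusted p 0.0026). CXCL11 was called lower in SKM-1 than in both other lines too, with 0 reads in both SKM-1 libraries. Of all genes, 7.79% were called lower in SKM-1 than in MOLM-14 and 7.78% lower than in NOMO-1. CXCL10 and CXCL11 reached the minimum mean of 10 normalized counts only through the other lines. In SKM-1 both were at or under the floor of 3 reads, where 2 libraries can differ little.

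Receptors that sense bacterial and cytokine signals upstream of chemokine genes were read in the same libraries. Of 19 such genes, 18 were tested and limma called 0 between knockdown and control, as it called 0 of 19575 genes. At an unadjusted p under 0.05 there were 3, 2 higher and 1 lower, beside 4.48% of all genes. In SKM-1, 8 of 18 were at least 2-fold higher in knockdown cells and 2 lower (18.1% and 17.1% of all genes). In NOMO-1, 4 of 17 were higher and 3 lower (5.62% and 9.18%). In MOLM-14, 0 of 16 were higher and 2 lower (3.44% and 3.83%). Log2 ratios were positive and negative for 15 and 3 genes in SKM-1, 8 and 9 in NOMO-1, and 6 and 10 in MOLM-14. TLR4, the lipopolysaccharide receptor, had 141 and 116 normalized counts in knockdown and control cells of MOLM-14, 1068 and 763 in those of NOMO-1, and 8383 and 5056 in those of SKM-1. It was called higher in SKM-1 than in MOLM-14 (log2 difference 5.66, limma adjusted p 0.0023) and than in NOMO-1 (2.85, limma adjusted p 0.0051). LY96, the partner of TLR4, had 96.0 and 68.0 counts in knockdown and control cells of MOLM-14, 234 and 55.7 in those of NOMO-1, and 884 and 35.6 in those of SKM-1.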
